A study of Mus musculus with 6 samples.

Results

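FXR binding was described at 9 genes that set the direction of glucose flux in the liver: the gluconeogenic enzyme genes Pck1, G6pc, Fbp1 and Pcx, the coactivator gene Ppargc1a, the glucokinase regulator gene Gckr, the glycolytic genes Pklr and Pfkfb1, and the pyruvate dehydrogenase kinase gene Pdk4. Every peak that the authors had assigned to one of these genes was taken, which gave 42 of 20040 peaks in the WT list and 23 of 12495 peaks in the LKO list. The lists come from FXR chromatin immunoprecipitation and sequencing (ChIP-seq) of male C57BL/6 mouse liver, with 2 ChIP libraries and 1 input library (chromatin sequenced without immunoprecipitation) per genotype. WT livers had the genotype Bcl6 fl/fl, whose Bcl6 alleles carry loxP sites, and LKO livers had Alb-cre with the same Bcl6 fl/fl alleles. The albumin promoter drives Cre in hepatocytes, so liver cells of LKO mice in which Cre is not active keep Bcl6. Both genotypes carry the floxed alleles. The study's general methods have animals fed ad libitum or fasted for a few hours unless stated, without saying which applied to these libraries. Their age is not given in the sources used here, nor is it said whether replicates came from separate animals, so the spread between them may be technical.

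FXR (farnesoid X receptor) is the nuclear receptor for bile acids. It binds DNA mostly with its partner RXR at an inverted repeat of the nuclear receptor motif AGGTCA with a 1-base spacer, IR1, and in liver it is best known for the control of bile acid synthesis and transport. BCL6 is a transcriptional repressor. In fasting, the liver makes glucose from lactate, glycerol and amino acids: pyruvate carboxylase and phosphoenolpyruvate carboxykinase (products of Pcx and Pck1) bypass the last step of glycolysis, fructose-1,6-bisphosphatase (Fbp1) reverses its committed step, and glucose-6-phosphatase (G6pc) releases free glucose. PGC-1alpha, the product of Ppargc1a, coactivates the transcription of these enzymes. In feeding, glucokinase is released from its regulatory protein (Gckr), pyruvate kinase (Pklr) completes glycolysis, and the bifunctional enzyme of Pfkfb1 sets the level of fructose 2,6-bisphosphate. PDK4 inactivates pyruvate dehydrogenase and spares pyruvate for glucose synthesis.

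The sequences below are the IR1 matches in the member peaks, shown because IR1 is the element FXR is known for, and 2 direct repeats with a 1-base spacer (DR1), shown because they are the closest DR1 matches among the members. Each run has 29 bases of GRCm38.p6 (mm10 coordinates), on the plus strand unless stated. Capitals mark the matched site.
Pcx promoter, IR1, chr19:4594343-4594371: gtattctgGGGCCAATGACCTcgggtgga
Pck1 downstream, IR1, chr2:173170314-173170342: gaaagtccAGGTCAGGAACCTcctgctga
G6pc upstream, IR1, chr11:101362438-101362466: aggtgctcAGGTCAAGGTCCTcagcctga
Ppargc1a downstream, IR1, chr5:51039856-51039884: tgtgttacAGGTCAATGGCATtagccttg
Ppargc1a upstream, IR1, chr5:51596007-51596035: agtttcatAAGTCATTGGCCTtgatcgtt
G6pc upstream, DR1, chr11:101351302-101351330, minus strand: caggtcacAGGTCACAGGTCAgatgtggc
Pcx intron, DR1, chr19:4534840-4534868: ggtcccacAGGTCACAGGTCTccaggtgt

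Motifs were searched on both strands within 100 bp of the peak centre. IR1 was AGGTCANTGACCT allowing 2 mismatches over 12 scored bases, and all 5 sites above had exactly 2 mismatches. It was found in 5 of the 42 WT member peaks (11.9%, 95% Wilson interval 5.19% to 25%), beside 11.8% of all WT peaks. In LKO it was found in 2 of 23 member peaks (8.70%, 2.42% to 26.8%), beside 16.2% of all LKO peaks. The Pcx promoter site lay 0 bp from the centre of its WT peak and the Pck1 site 12 bp, and both were in the WT and the LKO peak. The G6pc IR1 site was in the WT peak 5209 bp upstream of the start site and outside the LKO peak that overlaps it, which starts closer to the gene. The remaining IR1 sites belonged to Ppargc1a peaks that had no LKO peak over them.

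DR1, AGGTCANAGGTCA with at most 2 mismatches, is built from the same 6-base unit as IR1, and the motifs can overlap. It was found in 7 WT member peaks (16.7%, interval 8.32% to 30.6%) and 5 LKO member peaks (21.7%, 9.66% to 41.9%), beside 12.8% and 11.9% of all peaks. The G6pc site was an exact DR1, which 54 of all WT peaks (0.269%) held, and its 29 bases contained 3 exact copies of AGGTCA. It was in the WT and the LKO peak about 16.4 kb upstream of G6pc. The core shared by STAT factors and BCL6, TTCNNNGAA without mismatch, was found in 1 WT member peak, 2599 bp upstream of Pklr, and in 0 of 23 LKO member peaks, which allows up to 14.3% by the Wilson interval. The core was in 6.56% of all WT and 6.39% of all LKO peaks. The FOXA core TGTTTAC, again without mismatch, was in 2 WT member peaks and 0 LKO member peaks, beside 6.71% and 6.75% of all peaks. For each of these motifs and both lists, the share in all peaks lay inside the interval of the member share.

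FXR peaks were assigned to 8 of the 9 genes in WT and to 7 in LKO. Over all protein-coding RefSeq genes, 34.4% had a WT peak and 26.3% an LKO peak. G6pc and Pcx had 8 WT peaks each, Ppargc1a 7, Fbp1 6, Pck1 and Pdk4 5 each, Pklr 2 and Gckr 1. The median gene with a WT peak had 1, and 2.73% of such genes had 8 or more. In LKO, G6pc again had 8 peaks, a number reached or passed by 1.03% of the genes with an LKO peak, whereas Pck1 and Pdk4 had 4, Fbp1, Pcx and Ppargc1a 2, and Gckr 1. Pklr had no LKO peak, and the nearest one lay 32558 bp from a Pklr start site and was assigned to Fdps. Pfkfb1, on chromosome X, had no peak in either list, and the nearest WT peak was 900168 bp away.

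**Figure D1:**
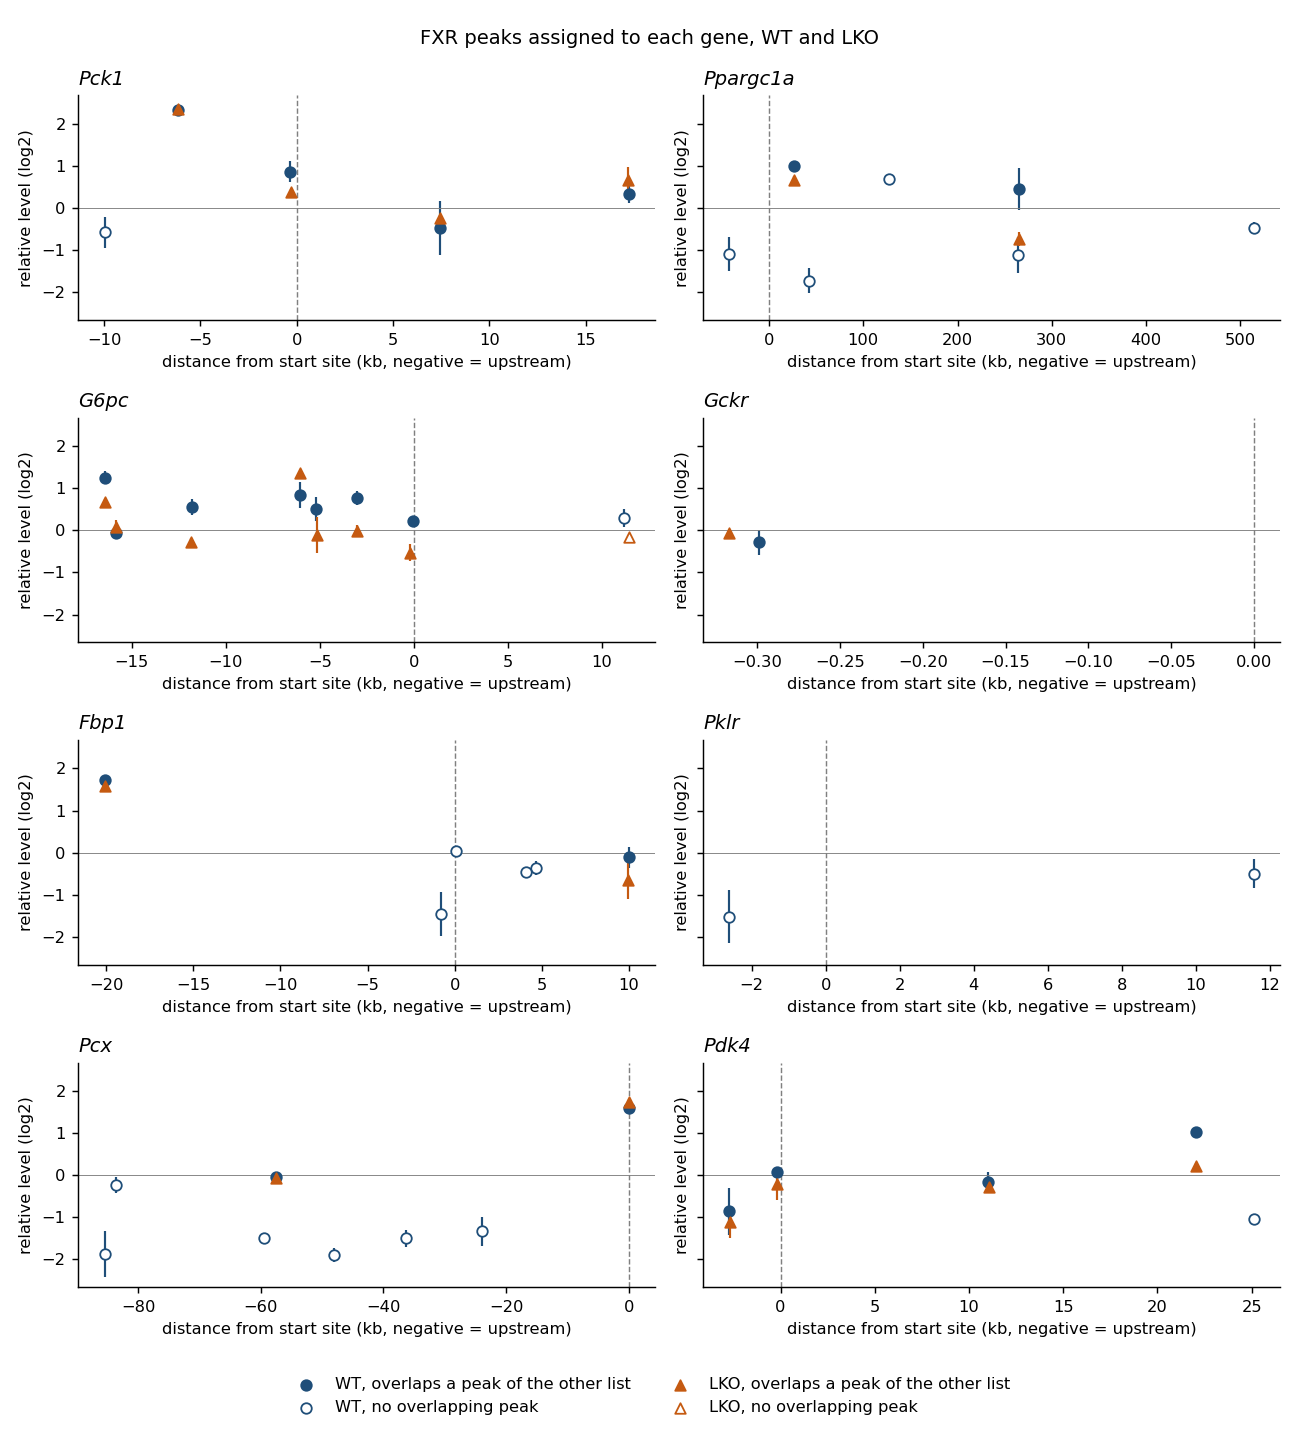
FXR peaks of the 8 genes with a peak, by distance from the start site of 1 reference transcript (kb, x axis, scale differing by panel) and relative level (log2, y axis), the deposited value less the median shared peak of the same library. Points are means of 2 libraries and vertical lines join both values, circles are WT and triangles LKO, and open symbols mark peaks that no peak of the other list overlaps. Filled symbols reach the highest level in each panel that has them, and 17 of the 20 open circles lie below 0. Over all WT peaks too, the shared part rose with strength, from 13.9% of the weakest 25% to 90.3% of the strongest 25%.

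Of the 42 WT member peaks, 7 were annotated to a promoter (16.7%), 11 to an intron and 21 as intergenic, and 35 lay within 30 kb of a start site. In LKO, 5 of 23 were promoter peaks (21.7%), 3 were intronic and 14 intergenic. No share over all peaks is given for the intron, intergenic and distance counts, so they only describe where the member peaks lie. Promoter peaks made up 11.4% of all WT and 11.3% of all LKO peaks, values inside the intervals of the member shares. The WT promoter peaks belonged to Pck1, G6pc, Pcx, Gckr and Pdk4, which had an LKO promoter peak too, and to Fbp1, whose 2 promoter peaks had none.

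A peak was called shared where it overlapped a peak of the other list by at least 1 bp. Of the WT member peaks, 22 were shared (52.4%, interval 37.7% to 66.6%), beside 49.5% of all WT peaks. Of the LKO member peaks, 22 were shared (95.7%, interval 79.0% to 99.2%), beside 79.4% of all LKO peaks, and both background values lay inside the member intervals. The LKO list thus held 1 member peak without a WT partner, in the region downstream of G6pc, and a gap of 62 bp separated it from the nearest WT peak. The 20 WT-only peaks were spread over Pcx (6), Ppargc1a (5), Fbp1 (4), Pklr (2), and Pck1, G6pc and Pdk4 (1 each). The LKO list held 0.548 times as many member peaks as the WT list, beside 0.624 times as many peaks in all, and the pooled ChIP libraries had 43924876 tags in LKO and 21906335 in WT.

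Shared WT member peaks were stronger than WT-only ones. Strength is the mean log2 value of both ChIP libraries, and the deposited values are taken as regularized log2 tags. The shared peaks had a median percentile of 82.8 in the WT list (42.9 to 98.3), and the WT-only peaks had a median percentile of 34.9 (6.48 to 85.9). Among the weakest 25% of WT peaks, 0 of 7 member peaks were shared, where 13.9% of all such peaks were. Between percentiles 25 and 50 it was 1 of 5 (33.0% of all), between 50 and 75 it was 7 of 14 (60.7%), and among the strongest 25% it was 14 of 16 (90.3%). Peak Score, which counts pooled ChIP tags per 10000000 and has no replicates, had a median of 48.15 in shared and 19.6 in WT-only member peaks. Over all shared pairs the LKO score was 0.507 times the WT score, and the lowest score in the LKO list was 8.88, which at that ratio corresponds to a WT score of 17.5. Of the 20 WT-only member peaks, 8 scored under 17.5 (40.0%), beside 49.3% of all WT-only peaks, and the part of this floor in the missing calls was not tested.

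The strongest WT-only peak was an intergenic Ppargc1a peak at chr5:51426565-51426775, 127251 bp downstream of the start site. Its relative levels were 0.67 and 0.68 in WT replicates 1 and 2 and its Peak Score was 61.6, at percentile 85.9 of the WT list, while the nearest LKO peak was 101049 bp away. At Fbp1, the WT-only promoter peak at chr13:62888100-62888310, 77 bp past the start site, had relative levels of 0.16 and -0.087 and a score of 46.6, with the nearest LKO peak 9660 bp away. The other Fbp1 promoter peak, 811 bp upstream at chr13:62888988-62889198, was weak, with -0.94 and -1.98 and a score of 20.5 at percentile 21.2. The G6pc peak at its transcription end (0.075 and 0.51, score 44.7) was the one with an LKO peak 62 bp away, whose levels were -0.20 and -0.13. The upstream Pck1 peak at -9974 bp had -0.22 and -0.94. The first-intron peak of the longer Pcx transcript, 146 bp past its start, had -0.43 and -0.041, and the peak downstream of Pklr, in the last exon of the neighbouring gene Hcn3, had -0.83 and -0.16. At Pdk4 the only such peak, 25103 bp downstream of the start site, had -1.11 and -0.95. The strongest WT-only peak of each of these 7 genes lay between percentiles 36.4 and 85.9 of the WT list. Peaks of middle and high WT strength were thus among those without an LKO partner. Over all 20 WT-only member peaks the median percentile was 34.9, and the lowest was 6.48.

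Levels were compared between genotypes at the 22 shared pairs. The tables were normalized separately, so each value is given relative to the median of all 9918 shared peaks in the same library, and the LKO minus WT difference describes standing among shared peaks, not absolute occupancy. No test was run, since 2 against 2 libraries cannot reach an exact two-sided permutation p below 0.333 and the scales are separate. Both LKO values lay below both WT values at 9 pairs, beside 25.2% of all shared pairs, and above both at 2 pairs, beside 29.8% of all. The remaining 11 pairs overlapped. The difference was negative at 15 pairs (68.2%, beside 48.0% of all shared pairs) and positive at 7, with a median of -0.28 (range -1.18 to 0.52), beside 0.026 over all shared pairs. It exceeded the pooled replicate SD at 11 pairs in the negative and 2 in the positive direction, beside 29.4% and 33.7% of all shared pairs. The counts depend on the scale: every difference is shifted by -0.067 when libraries are centred on the mean, by -0.33 on the deposited scale and by -0.48 when they are centred on all peaks, so pairs with higher LKO values are fewer there by construction. By rank among shared peaks, which has no such shift, 8 pairs had LKO below and 2 above, beside 27.7% and 27.4% of all pairs. The Fbp1 pair at -20084 bp was the one that no longer separated. Without LKO replicate 2 the median was -0.031, and without any 1 of the other libraries it lay between -0.34 and -0.22.

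The 9 pairs with lower LKO values were all among the strongest 25% of WT peaks, where 14 of the 22 pairs lay. Among all shared pairs of that strength, 38.1% had both LKO values below both WT values and the median difference was -0.13, whereas the 14 member pairs had a median difference of -0.52. The 22 pairs are not independent, since 7 belong to the G6pc locus. Without G6pc, 5 pairs had LKO below, 1 had LKO above and 9 overlapped, and the median difference was -0.15.

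**Figure D2:**
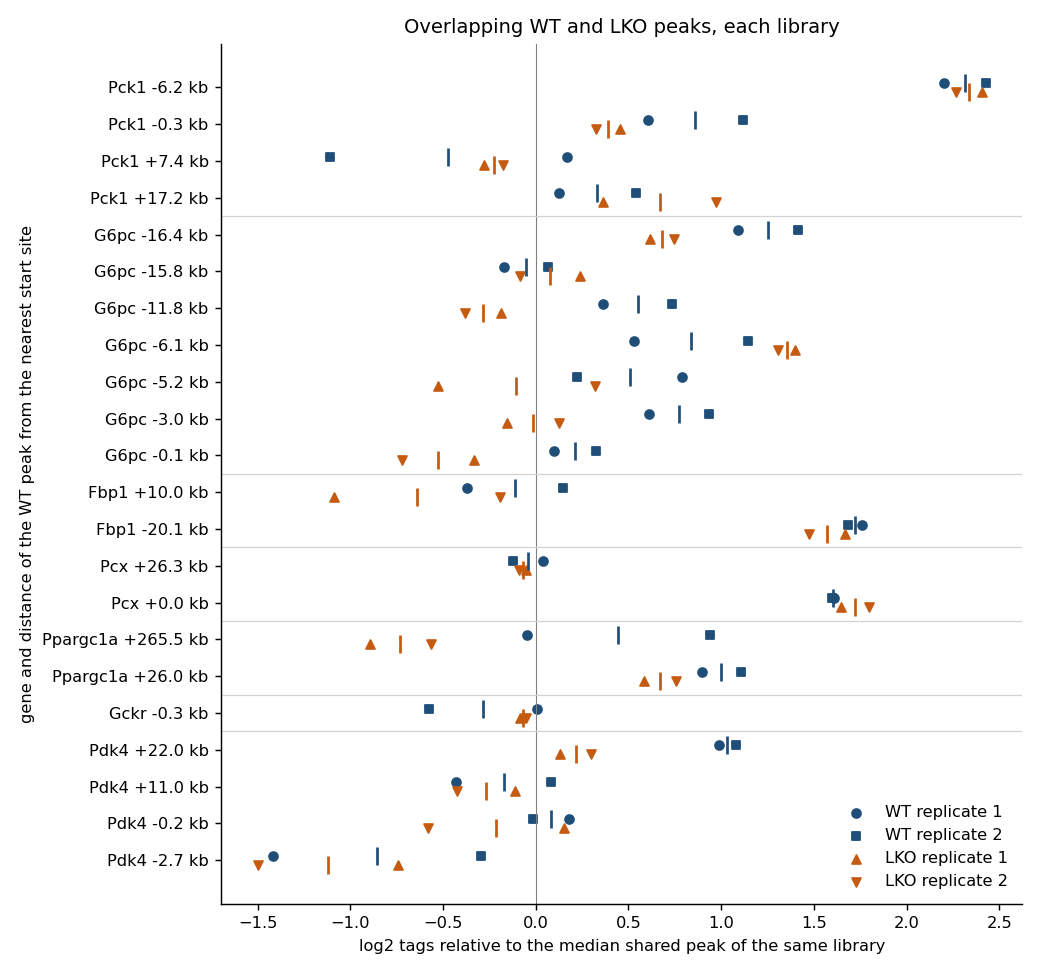
Relative level (log2, x axis) of each of the 22 shared pairs in every ChIP library, with genes and distance of the WT peak from the nearest start site in kb on the y axis. Blue symbols are WT and orange symbols LKO libraries, and the short bars are genotype means. The symbols of both genotypes separate at 11 pairs, 4 of the 9 with LKO to the left being at G6pc.

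G6pc, whose product catalyses the last step of glucose release, had 7 WT peaks between 54 and 16446 bp upstream of the start site (gene at chr11:101367716-101377903, plus strand), each with an LKO partner. The strongest WT peak of the gene, at chr11:101351165-101351375 with the exact DR1, had relative levels of 1.09 and 1.41 in WT and 0.62 and 0.74 in LKO, a difference of -0.57 with a pooled SD of 0.17. The peak at -6065 bp went the other way, with 0.53 and 1.14 in WT and 1.40 and 1.31 in LKO (difference 0.52, pooled SD 0.31, 0.21 without WT replicate 1 and 0.82 without WT replicate 2), and it was the strongest G6pc peak of the LKO list. LKO values were thus lower at the distal peak and higher at -6065 bp, where they overlapped WT on the deposited scale and when centred on all peaks (differences of 0.19 and 0.039). Input at -6065 bp, from 1 library per genotype, was -0.21 in WT and 1.73 in LKO. Mean ChIP minus input there was 6.32 in WT and 4.57 in LKO, the reverse order.

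At -11793 bp the relative levels were 0.36 and 0.73 in WT and -0.19 and -0.38 in LKO. At -3035 bp they were 0.61 and 0.93 in WT and -0.16 and 0.12 in LKO. The promoter peak at chr11:101367557-101367767 had 0.098 and 0.33 in WT and -0.34 and -0.72 in LKO, but the LKO peak was centred farther upstream and the peaks shared only 42 bp. These 3 differences, from -0.83 to -0.74, were larger than the pooled SDs of 0.21 to 0.22, and the groups did not overlap. At -5209 bp, where the WT peak held the IR1 site, LKO replicate 2 (0.32) lay between the WT values of 0.22 and 0.79 while LKO replicate 1 was at -0.53. At -15818 bp the values overlapped, with -0.17 and 0.064 in WT and 0.24 and -0.086 in LKO. Over the 7 pairs the median difference was -0.61, and on the log2 scales tried and without each library in turn it lay between -1.09 and -0.51. Input was above 0 on the log2 scale at 4 of the 8 G6pc peaks in each list, beside 31.0% of all WT and 46.5% of all LKO peaks. It reached 1.82 in WT and 2.47 in LKO, against a 95th percentile of 1.85 and 2.49 over all peaks. At -3035 bp input was 1.82 in WT and -0.037 in LKO, and mean ChIP minus input was 4.22 and 4.97. At the other shared G6pc pairs mean ChIP minus input was lower in LKO. The part of input in the differences was not tested.

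Pck1, the gene of the rate-controlling gluconeogenic enzyme, held the strongest member peak of both lists, an intergenic peak 6169 bp upstream of the start site at chr2:173146799-173147009. The deposited log2 values were 7.22 and 7.96 in WT and 7.45 and 7.11 in LKO, at percentiles 98.3 and 97.1. Relative levels were 2.20 and 2.43 in WT and 2.41 and 2.26 in LKO, and these values overlapped (difference 0.021, pooled SD 0.13). The Pck1 promoter peak, by contrast, had 0.60 and 1.12 in WT and 0.46 and 0.32 in LKO, a difference of -0.47 with a pooled SD of 0.27 and no overlap, which was -0.73 without WT replicate 1 and -0.21 without WT replicate 2. The downstream peaks at 7419 and 17243 bp, the latter with the IR1 site, had differences of 0.24 and 0.34, both within the pooled SDs of 0.64 and 0.37. Of the 4 shared Pck1 pairs, the promoter was thus the only one whose genotypes separated. Input at the promoter pair was 1.12 in WT and 0.025 in LKO, and mean ChIP minus input was 5.01 and 5.31. Mean ChIP minus input was also higher in LKO at -6169 bp and was lower in LKO at the downstream pairs. The part of input was not tested.

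Fbp1 and Pcx each had 1 strong shared peak. That of Fbp1 was intergenic, 20084 bp upstream at chr13:62908261-62908471, with relative levels of 1.76 and 1.68 in WT and 1.67 and 1.48 in LKO. Its difference of -0.15 exceeded the pooled SD of 0.10 and the values did not overlap, but it was -0.25 without LKO replicate 1 and -0.051 without LKO replicate 2. The intronic Fbp1 pair at 9992 bp overlapped, with -0.37 and 0.15 in WT and -1.09 and -0.19 in LKO. At Pcx, the peak at the start of transcript NM_008797, chr19:4594252-4594462, with the IR1 site at its centre, had 1.61 and 1.60 in WT and 1.65 and 1.80 in LKO, a difference of 0.12 with a pooled SD of 0.074 (0.20 without LKO replicate 1 and 0.047 without LKO replicate 2). LKO was above WT there on this scale and by rank, but the values overlapped on the mean-centred and deposited scales (differences of 0.054 and -0.21) and LKO lay below WT when centred on all peaks (-0.36). The intronic Pcx pair differed by -0.030. The 6 WT-only Pcx peaks were upstream of this start site and, apart from the one in the first intron, had scores of 12.3 to 18.7.

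Ppargc1a had the largest difference of any member pair when all libraries were used. The intergenic peak 265501 bp downstream of the start site, chr5:51288315-51288525, had relative levels of -0.049 and 0.94 in WT and -0.90 and -0.56 in LKO. The difference was -1.18 with a pooled SD of 0.52, at percentile 1.47 of the differences of all shared pairs, and the LKO score was 0.262 times the WT score (95% counting interval 0.183 to 0.372, against 0.507 over all pairs). The WT replicates were far apart at this peak, and without WT replicate 2 the difference was -0.68, smaller than at the G6pc pair at -5209 bp (-0.89) and the Pdk4 pair at 22031 bp (-0.77). The distance leaves its link to Ppargc1a to the nearest-gene rule alone. The peak in intron 2, 26000 bp past the start site, had 0.90 and 1.11 in WT and 0.58 and 0.75 in LKO (difference -0.33, pooled SD 0.14). Both Ppargc1a pairs were thus lower in LKO without overlap.

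Pdk4 had its strongest peak 22031 bp downstream of the start site, chr6:5474142-5474352, with 0.99 and 1.08 in WT and 0.13 and 0.30 in LKO. The difference was -0.82 with a pooled SD of 0.095, the widest separation among the members relative to replicate spread, and the score ratio was 0.290 (0.223 to 0.374). The other 3 Pdk4 pairs overlapped. At the promoter, the values were 0.18 and -0.015 in WT and 0.15 and -0.58 in LKO, and the peaks in the 3′ UTR and at -2717 bp differed by -0.097 and -0.27. The Gckr promoter peak, chr5:31297159-31297369, had 0.0070 and -0.57 in WT and -0.086 and -0.052 in LKO, with the LKO values inside the WT range (difference 0.21, pooled SD 0.29). Of the Pklr peaks, which were in the WT list only, the upstream one had -2.15 and -0.89 and rested on 24.1 pooled tags by its score, the fewest of any member peak.

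**Figure D3:**
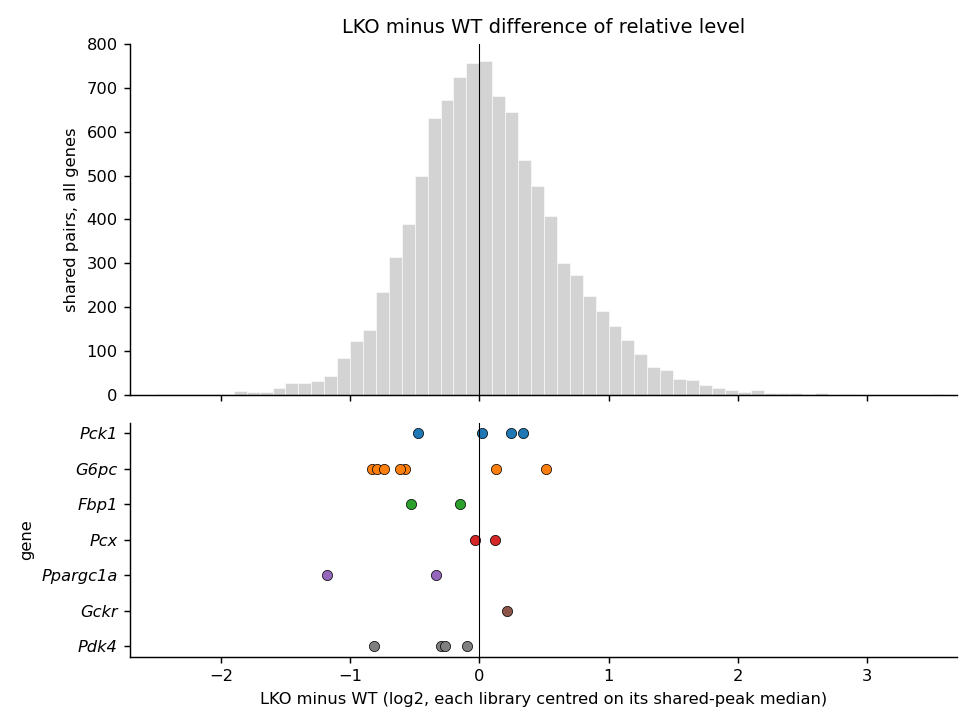
LKO minus WT difference of relative level (log2, x axis): the upper panel counts all 9918 shared pairs in bins 0.1 wide, and the lower panel places each member pair as a point in the row of its gene. Of 22 points, 15 lie left of 0, and the leftmost is a Ppargc1a pair at -1.18.

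Peak Scores rest on the same ChIP tags pooled over replicates and carry no replicate error, so they are not separate support. Of the 21906335 pooled WT tags, 19022618 came from replicate 1. The extremes were the same pairs, but elsewhere the direction could differ. At the Pck1 pair at 7419 bp and the Pdk4 pair at -2717 bp the level differences were 0.24 and -0.27. Their log2 score ratios, less the median over all shared pairs, were -0.31 and 0.26. The LKO to WT ratio had a median of 0.420 over the 22 pairs, beside 0.507 over all pairs. The highest ratio was 0.799 (counting interval 0.640 to 1.00) at the G6pc peak at -6065 bp, and the second highest was 0.723 (0.551 to 0.949) at the downstream Pck1 peak with the IR1 site. At the other end, the ratios of the G6pc promoter and -3035 bp peaks were 0.303 and 0.286, with intervals that ended at 0.421 and 0.379. The intervals cover counting error only.

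**Figure D4:**
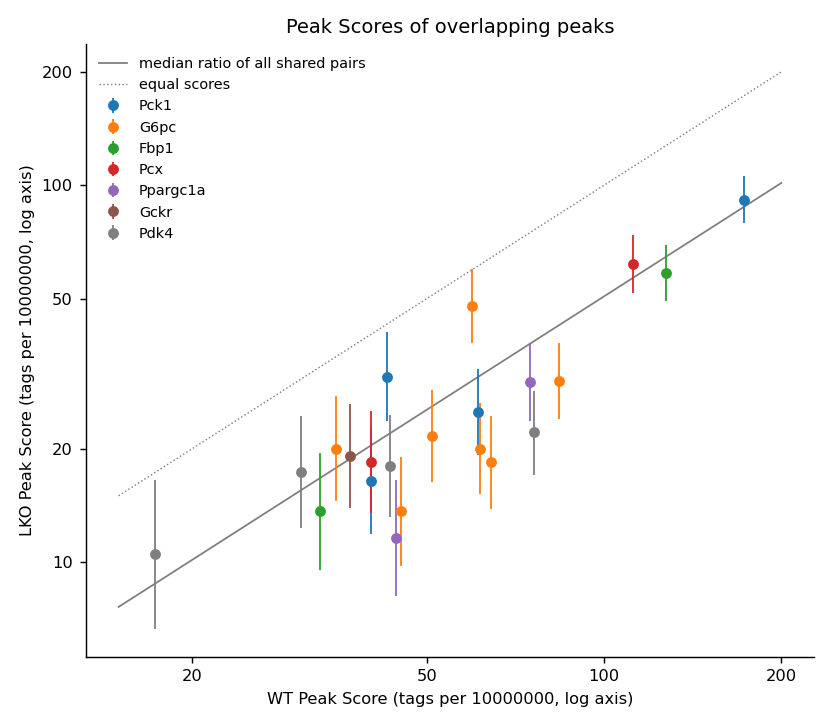
Peak Score in LKO (y axis) against WT (x axis) for the 22 shared pairs, both in tags per 10000000 pooled ChIP tags on log axes, coloured by gene. Bars are 95% counting intervals of the ratio applied to the WT score, the solid line is the median ratio of all shared pairs (0.507), and the dotted line marks equal scores. The G6pc peak at -6065 bp (0.799) lies farthest above the solid line and the downstream Ppargc1a peak (0.262) farthest below it.

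The libraries were uneven in depth, with 19022618 and 2883717 tags in the WT ChIP replicates, 21287263 and 22637613 in LKO and 6964271 and 6935001 in the inputs. WT replicate 2 was the shallow one, and at the 42 WT member peaks the median distance between replicates was 0.39 on the relative log2 scale, against 0.19 at the 23 LKO member peaks, while over all peaks of each list it was 0.36 and 0.28. Known FXR targets stood near the top of both lists: the strongest Nr0b2 peak was at percentile 99.9 in WT and 99.6 in LKO, and the Abcb11 peak at 98.0 and 96.5. Of the member peaks, 6 in WT and 3 in LKO were in the top decile of their list. ChIP exceeded input by at least 2.64 on the log2 scale at every member peak. The authors had kept only peaks with ChIP over input, so this describes the peaks and is no check of them. Of the WT member peaks, 1, in the first Fbp1 intron, had an input value (2.27) over the 95th percentile.

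Of 78 other genes of glucose metabolism, 62 had a WT and 55 an LKO peak. They held 210 WT peaks, of which 121 were shared (57.6%), and 136 LKO peaks, of which 121 were shared (89.0%), and the member shares of 52.4% and 95.7% had intervals that include these values. The 121 pairs had LKO below WT at 43, above at 23 and overlapping at 55, with a median difference of -0.12. Among all shared pairs, 25.2% had LKO below and 29.8% above, and the median was 0.026. The glycolytic and gluconeogenic enzyme genes (16 pairs) had a median of -0.34, the glycogen genes (21 pairs) -0.32, the transcription factor and coactivator genes (43 pairs) -0.17, and the genes for glucose-6-phosphate and glucose transport (8 pairs) -0.16. The genes for control of fructose 2,6-bisphosphate and pyruvate dehydrogenase (17 pairs) had -0.011 and those for precursor supply (16 pairs) 0.0092.

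Among the genes with most peaks in these groups, Ldha (lactate dehydrogenase) had 1.61 and 2.14 in WT and 0.35 and 0.41 in LKO at its strongest pair, a difference of -1.49. Mpc1, a subunit of the mitochondrial pyruvate carrier, differed by -0.80 at its strongest pair. The values there were 2.03 and 2.04 in WT and 1.36 and 1.09 in LKO. Slc2a2, the hepatocyte glucose transporter, had 9 WT peaks and overlapping values at its strongest pair (2.61 and 2.82 in WT, 2.55 and 2.74 in LKO), as Pck1 did. Pfkfb4 and Pfkfb3, each with an LKO-only peak, had LKO above WT by 0.99 and 0.62 at their strongest pairs. The WT values there were low, at -1.63 and -2.45 for Pfkfb4 and -0.80 and -0.39 for Pfkfb3. Their group of 17 pairs had 6 with LKO above and 6 below, beside 29.8% and 25.2% of all shared pairs. Tat (an amino acid catabolic enzyme) and Ppp1r3b (a glycogen-targeting phosphatase subunit) had LKO above WT by 0.28 and 0.15 on the relative scale at their strongest pairs. These sizes were under the shift of the deposited scale. Of the 21 glycogen pairs, 10 had LKO below and 3 above, and of the 16 precursor supply pairs 3 were below and 3 above. The shares over all shared pairs were 25.2% and 29.8%. Foxo3 had LKO above WT by 0.49 at its strongest pair, a size close to the shift of centring on all peaks (-0.48). Of the other transcriptional regulators with most peaks or an LKO-only peak, Nr3c1 (the glucocorticoid receptor) and Mlxipl (ChREBP) had LKO below WT by more. Their differences, at the strongest pair of each, were -1.01 and -0.86. Of the 43 pairs of the group, 17 had LKO below and 8 above, beside 25.2% and 29.8% of all shared pairs. An LKO-only peak, found once among the members, was found at 15 peaks of the other genes, among them Hk2, Pfkp, Pdk1 and Creb1, which had no WT peak.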

How the data were processed

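FXR ChIP-seq and input libraries of 6 samples were assigned to WT or LKO from their labels. The authors aligned single-end reads to mm10, kept unique alignments and called peaks with HOMER per genotype, pooling both ChIP libraries and using the input as control (the submitters' processing notes name Bowtie 1.2 and HOMER 4.10). They kept peaks with an adjusted p under 0.05 and a log2 fold over 1 in their count model of ChIP against input. The deposited fold change, p and adjusted p columns of that comparison were not used. The deposited library values, headed as tag counts, are not whole numbers and were read as regularized log2 tags fitted within each table. That transform draws the libraries of a table together, so SDs may understate the spread. The deposited Peak Score is a signal, pooled tags per 10000000. Multiplied by pooled depth, it gave whole tags at 100% of peaks scoring under 100, within 0.110 (WT) and 0.220 (LKO) tags, where rounding alone would give 21.9% and 43.9%.

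Each log2 value was centred on its library's median over 9918 overlapping pairs. Gene assignment and distance are the authors'. Distances came out the same to 2 bp from GRCm38.p6 RefSeq for 93.4% (WT) and 93.3% (LKO) of peaks. The members, gene lists and motifs were chosen with earlier results of these data known. All members are named, with library values for the strongest pair, promoter peaks and strongest list-only peak of each. Further G6pc, Pck1, Fbp1, Ppargc1a and Pdk4 pairs were added after their values were seen. Other genes named are the 2 per group with most WT peaks, or those with an LKO-only peak, and only some are shown. Alternatives were other scales, overlap rules, mismatches, strength minimums and leaving out each library. Shares have 95% Wilson intervals and score ratios 95% counting intervals. Simulated peaks were used to test the scripts, written in Python 3.11.15 with pysam 0.24.0, matplotlib 3.10.9, numpy 2.4.6, scipy 1.17.1 and pandas 2.3.3.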

Additional observations from a re-analysis of the deposited data

How the results depend on the processing

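Of 54 recomputed values over 10 results, 32 stayed within the replicate spread, the interval or 1.5 times the count, and 22 moved further. Most are counts, shares or percentiles, which have no direction to turn. The median difference over all member pairs stayed negative, but within single genes it could turn. The Pdk4 median went from -0.28 to 0.064 without LKO replicate 2, and the Pck1 median from 0.13 to -0.040 without WT replicate 2. The median LKO minus WT difference over the 22 pairs was -0.76 when libraries were centred on all peaks of their list, -0.61 on the deposited scale, -0.089 for pairs of peaks at or above their list's median, -8.88 in percentile points of rank, and -0.34 to -0.031 when each library was left out, with -0.031 without LKO replicate 2. These scales move all shared pairs alike: the median of all pairs was 0.026, -0.45 and -0.30 on the relative, all-peak and deposited scales, and the member median minus that of all pairs was -0.31 each time, against -0.064 without LKO replicate 2. Pairs without overlap numbered 11, and 17 on the all-peak scale (0 LKO above, 17 below; 9.43% above and 58.3% below over all pairs), 14 to 20 with each library left out, when 76.3% to 80.6% of all pairs do not overlap, and 6 without G6pc. On the deposited scale 0 were above and 13 below (12.9% and 37.3% of all). On the mean-centred scale the numbers were 1 and 10 (25.9% and 29.6% of all). The Pcx promoter pair turned there from LKO above to overlapping, which the shift of that scale brings about. IR1 was in 0% of WT and 0% of LKO member peaks at 1 mismatch and in 38.1% of WT ones at 3. Peaks at or above the median left 15 LKO member peaks, and a gap of up to 500 bp made 100% of LKO member peaks shared. The median percentile of member peaks, 68.7 in WT and 55.8 in LKO, was 69.2 and 55.3 by replicate 1, 69.2 and 55.2 by replicate 2, 69.2 and 60.7 by Peak Score and 73.5 and 68.2 by ChIP minus input. The scale by Peak Score, the settings without G6pc and the restriction on input were chosen after seeing the data. No paired analysis was possible because the genotypes sit in tables with scales of their own and were not tested against each other. WT replicate 2, with 2883717 tags the shallowest ChIP library, enters every WT mean, and its effect on their precision was not tested.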
